A study of Mus musculus with 3 samples.

Results

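Cdkn1a and the p53-linked growth arrest genes were taken as the probe sets annotated to 9 symbols: Trp53, which encodes p53, its feedback partner Mdm2, the growth arrest targets Cdkn1a, Ccng1, Gadd45a and Btg2, the Gadd45a relatives Gadd45b and Gadd45g, and Cdkn1b, a CDK inhibitor gene that is largely regulated without p53. On the array, 8 of these genes were covered by 10 of 12588 probe sets that are not controls. Trp53 was not analysed here. The samples were LNC cells, a malignant B-1 line that was grown out of the lymph node of 1 New Zealand Black (NZB) mouse aged 1 year. RNA was collected at 24 h from cells given an IL-10 antisense oligonucleotide at 20 µM, from cells given its scrambled version at 20 µM, and from untreated cells. The labels do not say whether an array holds 1 culture or several pooled. Each group had 1 array, so there was no replicate, no test could be run, and every difference is a description of 3 arrays of 1 cell line.

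p53 is a transcription factor that is held low by Mdm2, a ubiquitin ligase that p53 itself induces. When cells are stressed, p53 is released from Mdm2 and switches on genes that halt the cell cycle. Cdkn1a encodes p21, which binds and inhibits cyclin-dependent kinases, and it is the best known of these genes, although many p53-independent signals induce it too. The Gadd45 proteins bind stress kinases and Cdk1 and can hold cells before mitosis, and Btg2 encodes an antiproliferative protein that recruits the Ccr4-Not deadenylase. Cdkn1b encodes p27, a relative of p21 whose level is set largely by protein turnover.

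The windows of 250 bases before the starts of Cdkn1a and Ccng1 are shown because these were the only members with a probe set at least 2-fold above both controls. The window of the related gene Cdkn1b is shown because its only probe set above the floor stayed level across the arrays. Each is written 5′ to 3′ on the strand of the gene, from RefSeq on GRCm38.p6, and capitals mark the match to the 20-base p53 site. Cdkn1a has 2 starts in that table, 2790 bases apart. The windows lie at chr17:29090729-29090978 (plus strand) for the upstream start, chr17:29093519-29093768 (plus strand) for the downstream start, chr11:40755287-40755536 (minus strand) for Ccng1 and chr6:134920151-134920400 (plus strand) for Cdkn1b.
Cdkn1a upstream start: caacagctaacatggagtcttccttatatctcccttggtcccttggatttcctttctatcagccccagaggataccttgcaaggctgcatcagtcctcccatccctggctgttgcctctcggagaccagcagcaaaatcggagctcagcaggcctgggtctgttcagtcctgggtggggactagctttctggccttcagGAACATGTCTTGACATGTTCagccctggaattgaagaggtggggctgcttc
Cdkn1a downstream start: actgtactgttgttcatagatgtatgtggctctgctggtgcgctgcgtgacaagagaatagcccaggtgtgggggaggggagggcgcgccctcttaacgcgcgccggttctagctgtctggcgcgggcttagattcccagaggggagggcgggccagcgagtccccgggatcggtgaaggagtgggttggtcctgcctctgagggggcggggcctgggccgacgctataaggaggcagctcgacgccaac
Ccng1: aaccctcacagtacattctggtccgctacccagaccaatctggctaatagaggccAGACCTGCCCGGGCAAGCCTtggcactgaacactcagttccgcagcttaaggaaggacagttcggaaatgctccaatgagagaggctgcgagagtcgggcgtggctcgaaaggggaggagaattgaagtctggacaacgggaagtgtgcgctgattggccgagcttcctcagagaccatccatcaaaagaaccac
Cdkn1b: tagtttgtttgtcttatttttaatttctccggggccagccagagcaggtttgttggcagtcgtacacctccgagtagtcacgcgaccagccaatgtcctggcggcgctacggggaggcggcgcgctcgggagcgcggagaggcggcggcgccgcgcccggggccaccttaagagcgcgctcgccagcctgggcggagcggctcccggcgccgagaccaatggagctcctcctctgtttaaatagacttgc

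A 20-base p53 site, which is 2 copies of the p53 decamer side by side, was searched for with up to 2 mismatches. This search was added after the sequences had been seen. The window of the upstream Cdkn1a start held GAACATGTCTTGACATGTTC with 1 mismatch, from 51 to 32 bases before the start. The Ccng1 window held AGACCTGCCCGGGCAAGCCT with 1 mismatch, from 195 to 176 bases before the start. Of all 32851 promoter windows in the table, 0.661% held such a match, and among the 10 windows of the 9 member genes the other 8 windows had none. A single perfect decamer was more common, in 7.13% of all windows, and was found for 5 of the 9 genes: Cdkn1a, Ccng1, Mdm2, Gadd45a and Trp53. A STAT site (TTCNNNGAA, which reads the same on both strands) was in none of the 10 windows and in 7.02% of all. A GC box (GGGCGG, either strand) was in the windows of 6 of the 9 genes and in 32.7% of all, including 2 at the downstream Cdkn1a start, 1 at Cdkn1b and 3 at Btg2, of which 2 overlap by 1 base. The letters TATAAA of a TATA box, on either strand, were found for Gadd45b, Gadd45g and Trp53 and in 12.4% of all windows. They lie 46 to 41 bases before the start in Gadd45b and 27 to 22 in Gadd45g. In Trp53 they lie on the opposite strand, 248 to 243 bases before the start. Such matches describe letters in these windows only, and Mdm2 is known to be driven by p53 from within its own first intron.

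Intensities are on a linear scale after each array was brought to a common trimmed mean. Values below 595.9, which is 2 robust standard deviations of the values below 0, were treated as indistinguishable from 0 and set to this floor before log2 was taken, so a fold against such a value is a lower bound. Of the 10 member probe sets, 7 were above the floor on at least 1 array and 6 on all 3, while 3 were at the floor throughout. The share of all probe sets above the floor was between 42.0% and 42.6% on the 3 arrays. Of 10 B cell marker genes, 9 exceeded the floor on every array. The B-1 list held 4 measured markers, and 3 of them, Cd5, Spn and Itgam, stayed below the floor throughout. Its other marker, Ctla4, passed the floor with the antisense label only, at 758 against 121 scrambled and 64 untreated. Of 7 T cell markers, 6 were at the floor throughout, Cd3e, Cd3d and Cd3g among them, and Cd4 alone was above it. The corresponding numbers at the floor were 4 of 4 for NK cells, 6 of 8 for stromal cells, 3 of 8 for macrophages and granulocytes and 1 of 3 for erythroid cells. Il10, the targeted gene, was itself higher in the sample labelled antisense, at 13946 against 5616 in the scrambled and 5164 in the untreated sample, so the array is called antisense-labelled throughout, and each direction given here rests on that label. Spike-in controls of bacterial RNA (6 probe sets) had mean log2 differences on that array of -0.63 from untreated and -0.51 from scrambled. The 5′ probe set of 18S ribosomal RNA read 640 on it, 2435 for scrambled and 4465 for untreated. The 3′ probe set read 5203, 10919 and 7693 in the same order, and the middle one 187, 2070 and 1009, so these 2 were highest for scrambled. Scaling to the spike-in controls was run as an alternative, and its values stand beside some of the results. Under it the medians of all gene lists below, from untreated and from scrambled, were above 0, also where the median given is below 0. The part of the 18S difference in the results was not tested.

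Cdkn1a, the gene of the CDK inhibitor p21, exceeded both controls on the antisense-labelled array in each of its probe sets. Probe set 94881_at read 3050.1 in antisense-labelled cells, 1205 in scrambled cells and 961 in untreated cells. The control values lay close together, 1.25-fold apart, and the antisense value stood 3.17-fold above untreated and 2.53-fold above scrambled, with log2 differences of 1.67 and 1.34. Probe set 98067_at read 3595 on the antisense-labelled array and 316 and 325 on the scrambled and untreated arrays, both below the floor. It was therefore at least 6.03-fold above either control. Among the 6127 probe sets above the floor on at least 1 array, this one had the largest excess over both controls, taking the smaller of its differences, and 94881_at was at rank 31. Since 98067_at passed the floor through the antisense-labelled array alone, its rank rests on a bound.

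As a measure of scatter, the 300 probe sets nearest to a gene in mean level were compared between both control arrays, and the 95th percentile of their absolute log2 differences is called the scatter at that level. It includes whatever the scrambled oligonucleotide itself changed. At the levels of the Cdkn1a probe sets the scatter was 1.04 for 94881_at and 1.18 for 98067_at, and all 4 of their differences from the controls were larger. Between the controls, 94881_at differed by 0.33, scrambled above untreated, within the scatter. Under spike-in scaling instead, the differences of 94881_at became 2.30 and 1.85 and the bound of 98067_at became 2.97 on the log2 scale.

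**Figure D1:**
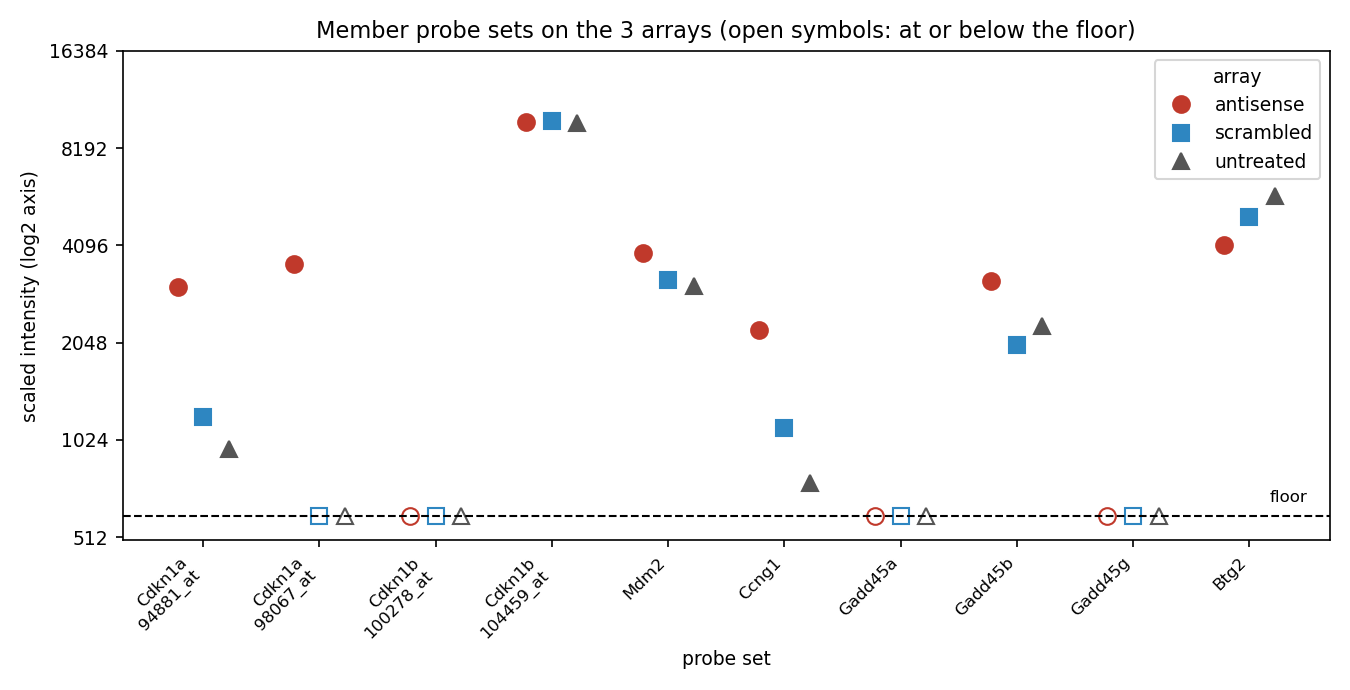
Scaled intensity (log2 axis) of the 10 member probe sets on the antisense-labelled array (circles), the scrambled array (squares) and the untreated array (triangles), 1 array each, with open symbols for values at or below the floor of 595.9 (dashed line). Both Cdkn1a probe sets and Ccng1 are highest with the antisense label, Cdkn1b 104459_at is level at 9814 to 9946, and 3 probe sets stay at the floor. Heights of different probe sets are not comparable.

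Ccng1 encodes cyclin G1, which p53 induces and which recruits a phosphatase to Mdm2. It read 2234 in antisense-labelled, 1113 in scrambled and 754 in untreated cells. The antisense value was the highest of the 3 and the untreated value the lowest, little above the floor. The log2 difference was 1.57 against untreated, above the scatter of 1.23, and 1.01 against scrambled, within it. The controls differed by 0.56, so the scrambled value lay between the others, and Ccng1 was at rank 83 of 6127 by the smaller of its differences. It was only just counted as 2-fold above scrambled: its difference there was 0.91 with a floor of 1191.9, 0.96 with scaling to the median and 0.97 with quantile normalization, each below the 2-fold mark.

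Mdm2, the other feedback gene measured here, was close to level. It read 3868 with the antisense label, 3204 with the scrambled oligonucleotide and 3067 untreated, so the antisense value was 1.26-fold above untreated and 1.21-fold above scrambled. The log2 differences of 0.33 from untreated and 0.27 from scrambled were within the scatter of 0.67 at its level. With scaling to the spike-in controls they became 0.97 and 0.78. That scaling moves every value above the floor by a common 0.63 and 0.51. Both differences then exceed the scatter, which was taken with the report's scaling.

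Of the Gadd45 genes only Gadd45b was above the floor. Gadd45b, which NF-kB and cytokine signals also induce, read 3165 in antisense-labelled, 2013 in scrambled and 2298 in untreated cells. The antisense value was the highest, by log2 differences of 0.46 against untreated and 0.65 against scrambled, both within the scatter of 0.75. With spike-in scaling these differences moved by about the same common shift, to 1.09 and 1.17. Both are above the scatter taken with the report's scaling. Gadd45a, the family member that p53 induces, read -361, 372 and -306 on the antisense, scrambled and untreated arrays, and Gadd45g read -50, 141 and -9. These values are all below the floor, so for Gadd45a and Gadd45g no fold can be given.

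Btg2 went the other way. It read 4111 in antisense-labelled cells, 5006 in scrambled cells and 5816 in untreated cells, so the antisense value was the lowest of the 3. The log2 difference was -0.50 against untreated and -0.28 against scrambled, both within the scatter of 0.53, and between the controls it was -0.22. With scaling to the spike-in controls these became 0.13 from untreated and 0.23 from scrambled, moved by the common shift of 0.63 and 0.51 that this scaling gives to every value above the floor.

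Cdkn1b, the p27 gene, was level in its only probe set above the floor. Probe set 104459_at read 9831 with the antisense label, 9946 with the scrambled oligonucleotide and 9814 untreated, and these differ by 0.00 against untreated and -0.02 against scrambled where the scatter is 0.37. With spike-in scaling these became 0.63 and 0.50, about the common shift. Its other probe set, 100278_at, read -275, -48 and 389, all below the floor, so the reading of Cdkn1b rests on 104459_at alone. In these probe sets the genes of the CDK inhibitors p21 and p27 had different RNA differences on the same 3 arrays. They were at least 1.34 on the log2 scale for Cdkn1a and 0.00 or -0.02 for Cdkn1b 104459_at.

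In all, 3 of the 7 member probe sets past the floor were at least 2-fold above untreated, where 2.64% of the 6127 probe sets were, and 3 were at least 2-fold above scrambled, where 3.2% were. The same 3, both of Cdkn1a and that of Ccng1, were above both controls, as were 1.35% of all. The comparisons share the antisense array, and one of the 3 passed the floor only because it was high there. No member was 2-fold below untreated, scrambled or both, where 2.2%, 2.82% and 1.06% of all probe sets were. Between the scrambled and untreated arrays no member was 2-fold apart, while 1.7% of all probe sets were 2-fold higher and 1.4% were 2-fold lower with the scrambled oligonucleotide. The members were chosen with earlier results in view, so these shares are not independent evidence about the group.

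**Figure D2:**
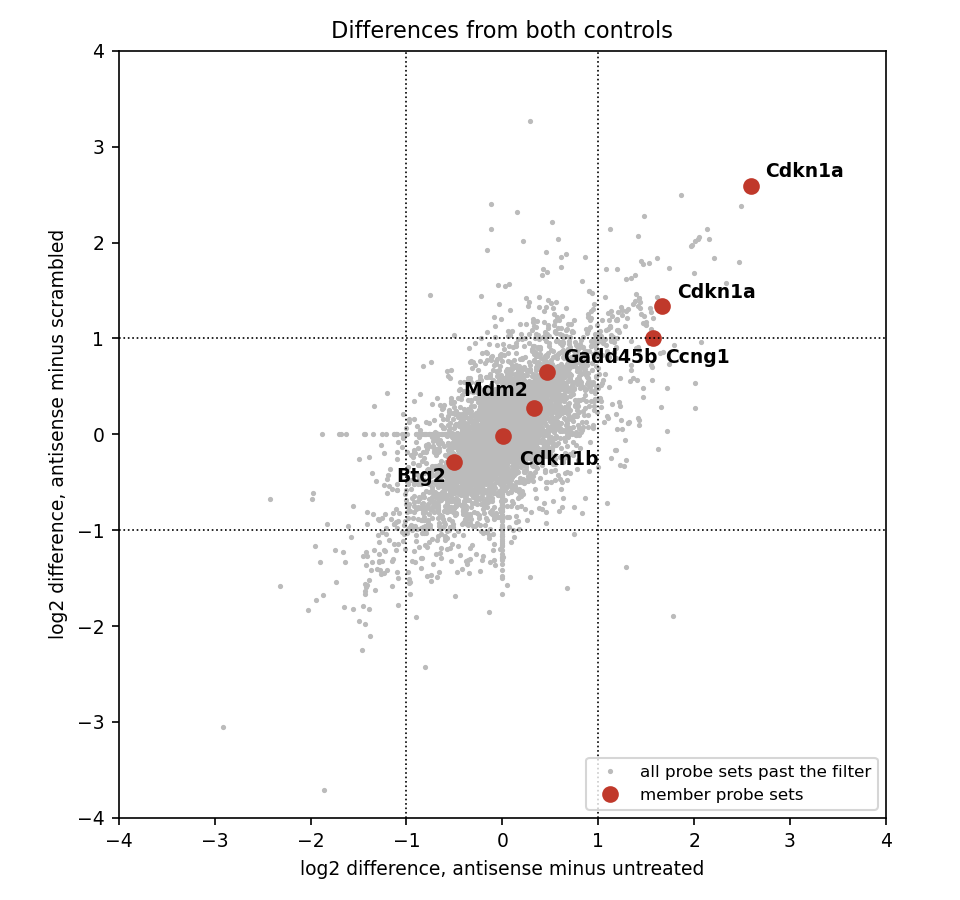
Log2 difference of the antisense-labelled array from the untreated array (horizontal) and from the scrambled array (vertical) for 6127 probe sets (grey) and the 7 member probe sets past the floor (red), with dotted lines at 2-fold. Both Cdkn1a probe sets and Ccng1 lie at or beyond 1 on both axes, Btg2 lies below 0 on both, and both axes share the antisense array.

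**Figure D3:**
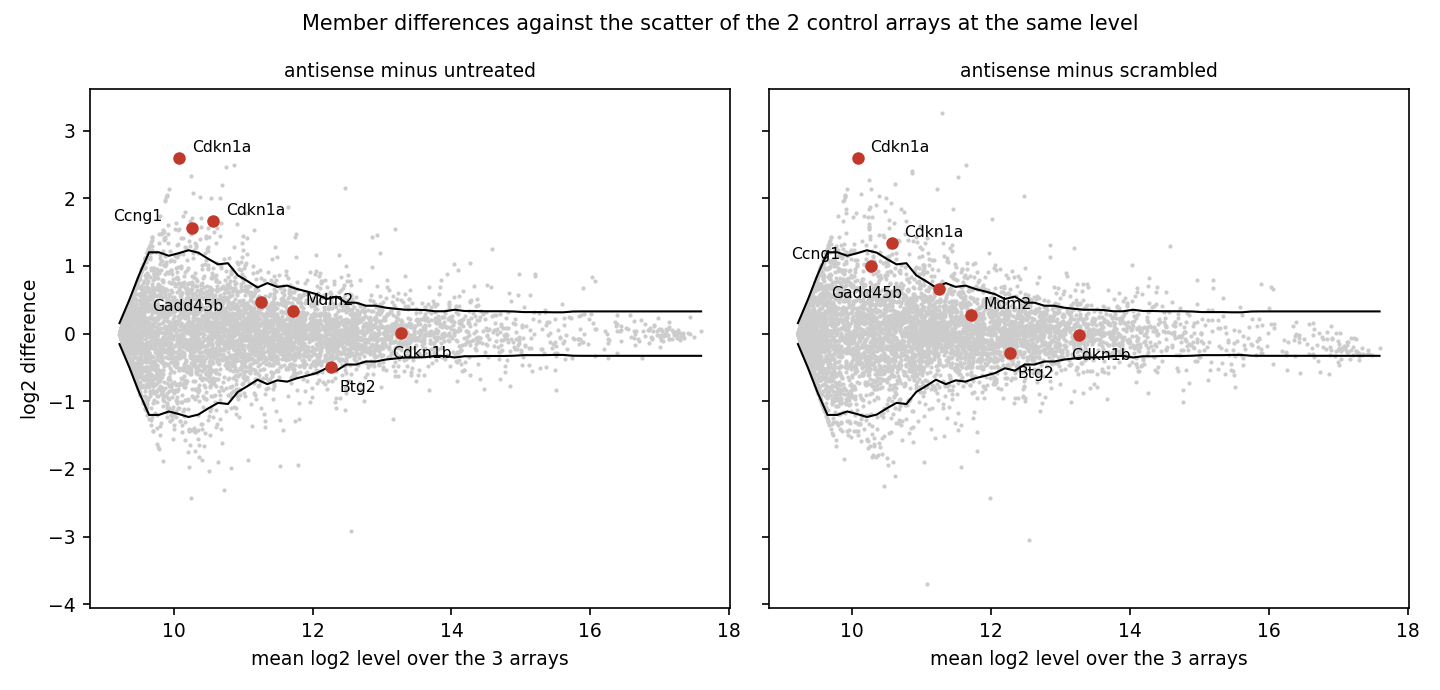
Log2 difference against mean log2 level over the 3 arrays for 6127 probe sets (grey) and the members (red), with black lines at plus and minus the 95th percentile of the difference between the control arrays at that level. Cdkn1a lies outside the lines in both panels, Ccng1 only against untreated, and Mdm2, Gadd45b, Cdkn1b and Btg2 inside them in both.

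The 6 other genes closest to the mean of the Cdkn1a probe sets, at 2.13 against untreated and 1.97 against scrambled, were named by distance in the plane of these differences over the 3 arrays. This mean joins the measured differences of 94881_at with the bounds of 98067_at, which are 3.47 and 3.51 with a floor of 298.0, so the centre and the distances from it hold for the floor of 595.9 only. The nearest was Pim2, at a distance of 0.08, which read 14958 with the antisense label against 3634 and 3351. A probe set of Pim1, the gene of a related survival kinase, was at 0.15, with 4222 against 1183 and 916. Krt12, a keratin gene, and Frat2, which binds the kinase GSK3, were both at 0.12, Pex14, of peroxisome import, at 0.13 and Wbp1 at 0.17. These last 4 genes were above the floor only with the antisense label, and with 3 arrays many probe sets can share a pattern by their bounds alone. The Frat2 and Pex14 probe sets carry a suffix that marks a reduced probe set, and the other Pex14 probe sets differed by 0.69 and 0.05 or by -0.08 and 0.17.

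The other genes of the pathway were read from whole lists. Where a pair of differences or medians names no control, that from untreated comes before that from scrambled. Each gene counted once, through whichever of its probe sets had the highest mean intensity, and genes above the floor on the 3 arrays were compared with 3518 such genes in all, of which 37.9% were higher and 36% lower than both controls by any amount, with medians of 0.01 against either control. Over all 8220 measured genes, with values at the floor included, 0.706% were at least 2-fold above both controls. Lists share genes with each other, with the members and with lists examined earlier on these arrays.

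Among 18 measured p53 regulators, 13 were above the floor on the 3 arrays, and 7 of these were higher and 3 lower than both controls, and the median differences were 0.15 from untreated and 0.23 from scrambled, the former 0.03 with a floor of 1191.9. Mdm4, the relative of Mdm2 that binds and restrains p53, was the 1 regulator at least 2-fold above both. It read 5743 with the antisense label against 2792 scrambled and 2623 untreated, log2 differences of 1.13 from untreated and 1.04 from scrambled where the scatter is 0.64, and its other probe set was below the floor on each array. The damage kinase genes Atm and Chek2 differed by 0.27 and 0.29 against untreated and by 0.52 and 0.66 against scrambled, while Chek1, the checkpoint kinase gene of replication, differed by -0.37 and -0.29. Cop1, another ubiquitin ligase of p53, read 1650 against 2853 and 2627 in a reduced probe set, and 2391 against 2122 and 2004 in another, so its probe sets went different ways, and only the -0.79 of the reduced probe set from scrambled exceeded the scatter, of 0.68.

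Of 19 measured p53 targets of growth arrest and feedback, 10 were above the floor, 7 higher and 2 lower than both controls, and the median differences were 0.32 from untreated and 0.24 from scrambled. The former was 0.15 with a floor of 1191.9, and with spike-in scaling they were 0.95 and 0.70. Cdkn1a, Ccng1 and Mdm2 are among the 7, and Btg2 is one of the lower pair. Of the genes that are not members, Zmat3, an RNA-binding protein gene, read 1543 against 1206 scrambled and 916 untreated, differences of 0.75 against untreated and 0.36 against scrambled. Gtse1, which restrains p53 in G2, differed by 0.30 and 0.17, and Ccng2, the cyclin G2 gene, by 0.15 and 0.20. Sesn1, a stress-induced inhibitor of growth signalling, differed by -0.44 and -0.14. None of these 4 genes exceeded the scatter at its level.

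Among p53 targets outside growth arrest no gene was 2-fold apart from both controls. Of 10 measured targets of repair and metabolism, 6 were above the floor, 3 were lower than both controls and 0 higher, and the median differences were -0.40 from untreated and -0.06 from scrambled. The former was -0.19 with a floor of 1191.9, and with spike-in scaling they turned to 0.23 and 0.45, below the common shift. Those 3 were Sod2, the mitochondrial superoxide dismutase gene, at -0.56 against untreated and -0.00 against scrambled, Rev3l at -0.50 and -0.11, and Rrm2b, a p53-induced ribonucleotide reductase subunit read by a family probe set, at -0.42 and -0.62, all within the scatter. Of 11 measured death targets, 7 were above the floor, 5 higher and 2 lower, with medians of 0.07 and 0.22. Ctsd, which encodes cathepsin D, exceeded untreated by 0.58 and scrambled by 0.67, the latter slightly above the scatter of 0.66, while Apaf1, of the apoptosome, differed by 0.33 and 0.27 and the pore protein gene Bak1 by -0.15 from untreated, within its scatter of 0.37, and by -0.39 from scrambled, slightly beyond it.

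All 8 listed CDK inhibitor genes were on the array. Apart from Cdkn1a and Cdkn1b, Cdkn2d was the only one above the floor on the 3 arrays, at 1154 with the antisense label, 1473 scrambled and 1612 untreated. It differed by -0.48 against untreated and -0.35 against scrambled, within the scatter of 1.11. Cdkn3, a phosphatase of CDKs, read 693 untreated and was below the floor on the other arrays. Cdkn1c, Cdkn2a, Cdkn2b and Cdkn2c were below the floor throughout, so no fold can be given for them.

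Cyclins and CDKs, the proteins that p21 and p27 bind, came next. The list used for them also holds Pcna and Mnat1, which are neither cyclins nor CDKs. Of its 12 measured genes, 9 were above the floor, 3 higher and 4 lower than both controls, and none was 2-fold apart from both. The median differences were 0.09 from untreated and -0.12 from scrambled, and 0.72 and 0.39 with spike-in scaling. Mnat1, one of the 3 higher genes, read 3414 with the antisense label against 2247 scrambled and 2686 untreated. Its differences of 0.35 from untreated and 0.60 from scrambled were within the scatter of 0.75. Cdk2, the main partner of both inhibitors, read 2539 with the antisense label against 2821 scrambled and 3012 untreated, differences of -0.25 from untreated and -0.15 from scrambled within the scatter of 0.69. Its dimmer probe set read 840 with the antisense label and 719 untreated, and 242, below the floor, with the scrambled oligonucleotide. Cdk1, the mitotic kinase gene, read 17016 against 20477 scrambled and 21608 untreated. Its difference of -0.34 from untreated lay just beyond the scatter of 0.33 and that of -0.27 from scrambled within it. Of 13 genes of Cdkn1b turnover, 11 were above the floor, 5 higher and 3 lower, with medians of -0.02 and 0.24, and of 0.61 and 0.75 with spike-in scaling. Cks1b, a cofactor in the degradation of p27, read 19303 against 14159 scrambled and 14852 untreated, differences of 0.38 against untreated and 0.45 against scrambled that both exceed the scatter of 0.33. Uhmk1, a kinase of p27, differed by 0.53 and 0.71 and Kpna2, an importin, by -0.64 and -0.28, each beyond its scatter against 1 control only.

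The DREAM complex represses cell cycle genes, which p21 promotes by keeping the pocket proteins of the complex unphosphorylated. The listed targets of this complex were mostly lower on the antisense-labelled array with the report's scaling. Whether Cdkn1a had a part in these differences was not tested. Of 33 measured, 29 were above the floor, and 21 of these, 72.4%, were lower than both controls where 36% of all genes were, while 4 were higher. The medians were -0.33 against untreated and -0.29 against scrambled, with 0.00 between the controls. No gene of this list was 2-fold below both, Cdc25c coming nearest at -0.99 against each, in a probe set with a suffix letter. Its other probe set was below the floor with the antisense label. The differences there, -0.52 from untreated and -0.14 from scrambled, are bounds. Both bounds are smaller than the scatter of 0.73, but a bound cannot show that a difference lies within it. Plk1, a mitotic kinase gene, read 5698 against 9589 scrambled and 9815 untreated, differences of -0.78 from untreated and -0.75 from scrambled, and its family probe set read 3958 against 6434 scrambled and 7259 untreated. Cdc20, whose protein starts anaphase, read 8215 against 13711 scrambled and 13382 untreated, differences of -0.70 from untreated and -0.74 from scrambled. Hmgb2, a chromatin protein gene read by a reduced probe set, differed by -0.77 from untreated and -0.73 from scrambled. Each of these differences of Plk1, Cdc20 and Hmgb2 exceeded the scatter at its level. Foxm1, the transcription factor gene of mitotic genes, was higher by 0.66 than untreated and by 0.52 than scrambled, and higher than both were also Bub1, Kif11 and Top2a. With spike-in scaling the medians turned to 0.30 and 0.22, below the common shift of 0.63 and 0.51.

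The lists of the Gadd45 and BTG families and their partners showed no common direction. The Gadd45 list also holds Ddit3, Ddit4 and Myd88, which are neither Gadd45 family genes nor kinase genes. Ddit3 is among its higher genes and Myd88 among its lower ones. Of 12 measured genes of this list, 9 were above the floor, 4 higher and 4 lower than both controls, with medians of 0.00 and -0.11. These were 0.23 and -0.01 with a floor of 1191.9, and 0.86 and 0.51 with spike-in scaling. Mapk8, the JNK1 gene, differed by 0.80 and 0.57 within a scatter of 1.23, and Myd88, an adaptor of Toll-like receptors, by -0.30 and -0.59. Of 10 BTG and TOB genes and partners, 6 were above the floor, 2 higher and 1 lower, and the median differences were -0.08 from untreated and 0.11 from scrambled. With spike-in scaling these medians were 0.50 and 0.61. Cnot8, a deadenylase that BTG proteins bind, read 2257 against 1020 scrambled and 1401 untreated, differences of 1.15 against scrambled, just above the scatter of 1.11, and 0.69 against untreated, within it. Btg1, the closest relative of Btg2, read 1793, 996 and 1625 on the antisense, scrambled and untreated arrays, so it was level against untreated.

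Regulators of Cdkn1a other than p53 were led by the Pim kinases, which phosphorylate p21. Of 29 measured genes, 15 were above the floor, 5 higher and 7 lower than both controls, and the median differences were -0.06 from untreated and -0.18 from scrambled. With spike-in scaling these medians turned to 0.57 and 0.34. Pim1 and Pim2 were the 2 genes at least 2-fold above both, and the brighter Pim1 probe set read 17982 against 7444 scrambled and 6134 untreated. Egr1, an immediate-early factor that binds the Cdkn1a promoter, read 4036 against 2087 scrambled and 1396 untreated, differences of 1.53 against untreated and 0.95 against scrambled, both beyond the scatter of 0.68, while its family probe set was below the floor on each array. Tgfb1, the gene of a cytokine that induces Cdkn1a in many cells, read 2812 against 4443 scrambled and 5405 untreated, differences of -0.94 from untreated and -0.66 from scrambled that lie beyond the scatter of 0.56. The repressor gene Myc differed by 0.20 and 0.05.

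**Figure D4:**
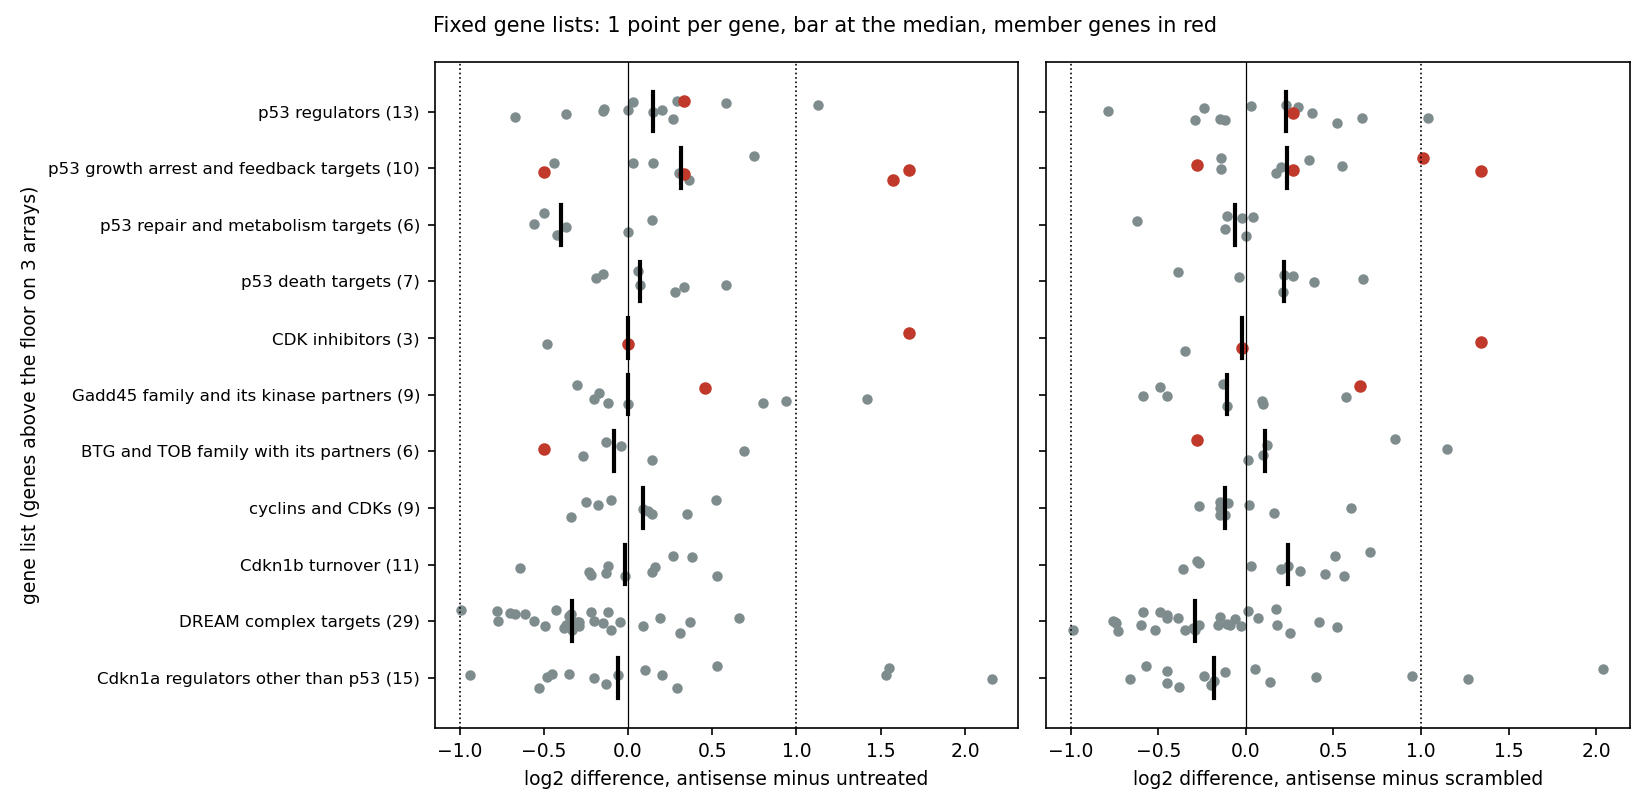
Log2 difference of the antisense-labelled array from the untreated (left) and scrambled array (right) for the genes of 11 lists that were above the floor on the 3 arrays, 1 point per gene, with member genes in red, a bar at each list's median and dotted lines at 2-fold. The DREAM complex list has the medians -0.33 and -0.29, and the red points beyond the right dotted line are Cdkn1a in 2 lists and Ccng1. Under spike-in scaling points shift right by about 0.63 and 0.51.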

How the data were processed

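Total RNA of 3 LNC samples was measured on 3 Affymetrix mouse arrays, 1 per group. Each deposited value is a linear intensity of a probe set, and the arrays already had nearly equal trimmed means, with rescaling factors from 0.9993 to 1.0004. Their software was not given in the sources used here. At or below 0 lay 24.8% to 27.9% of the values per array. Intensities were scaled again to a common 2% trimmed mean over 12588 probe sets, floored at 595.9 and turned into log2 values, so differences of low probe sets are understated. Requiring 1 array above the floor left 6127 probe sets. The floor, members, gene lists and settings were chosen with earlier results of these data known. Genes were named from the platform annotation, where 10276 probe sets carry exactly 1 symbol. For 10257 of these probe sets the gene identifier was found in RefSeq. Named genes were all member probe sets, up to 4 genes per list ranked by the smaller of their same-way differences from both controls, all CDK inhibitors and the 6 genes nearest Cdkn1a. Other genes were named after their values were seen: Atm, Foxm1, Bub1, Kif11, Top2a and Myc. Probe sets whose name has a suffix letter can bind several transcripts or have fewer probes. Some probe sets of the first release of this array design read the wrong strand, and which they are was not checked here. The number of arrays limits precision. The calculations were tested on simulated data. Alternatives were another floor, scaling, filter and probe set choice. Python 3.11.15, numpy 2.4.6, pandas 2.3.3 and matplotlib 3.10.9 were used.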

Additional observations from a re-analysis of the deposited data

How the results depend on the processing

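Across 9 alternatives, 183 of 186 member differences moved by no more than the scatter at their level, and the 3 others moved only with spike-in scaling: Cdkn1b 104459_at to 0.63 against untreated and 0.50 against scrambled, and Btg2 to 0.13 against untreated. Alternatives that change the filter or drop suffixed probe sets cannot move a kept difference, and the deposited values hardly differ from the scaled ones. The tallies here include them. The scatter is also a wide limit. For Ccng1 it is 1.23, so a change from 1.57 to 0.91 against untreated, with the higher floor, counts as unmoved. Cdkn1a stayed at least 2-fold above both controls wherever its probe sets were kept, in 10 of 10 settings for 94881_at and 9 of 9 for 98067_at, whose rank was between 1 and 6. The filter on all 3 arrays removes 98067_at. Ccng1 was 2-fold above both controls in 7 of 10 settings, and Gadd45b in 1 of 10, with spike-in scaling. Of all probe sets, the number at least 2-fold above both controls, 83 in the report's setting, was 191 with the lower floor of 298.0, 37 with the higher floor of 1191.9, 37 with only probe sets above the floor on the 3 arrays and 524 with spike-in scaling. The number 2-fold below both, 65, was 182, 15, 38 and 19 in the same order. The medians of lists moved by over 0.1 in 42 cases, 32 of them with spike-in scaling, and by no more in 285. The 285 include both changes of the filter, which cannot move a median. No paired analysis was possible because each group has 1 array. A difference smaller than the scatter, such as those of Mdm2 and Gadd45b in the report's setting, was not resolvable with 1 array per group.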
